A study of Mus musculus with 48 samples.

Results

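The type I interferon antiviral genes are 34 genes that cells switch on when interferon reaches their receptor. They were followed here in the skin of C3H/HeJ mice, a strain in which alopecia areata arises, in a series on preventing that disease by blocking the interleukin-15 pathway. A member was represented by the array probe sets that name that gene and no other, and by the one of highest mean where several did so. On this basis 32 of the 34 members could be followed among 18194 genes, and all 32 passed the filter on low values that left 13648 genes for testing. For Ifi44 no probe set naming that gene alone was listed, and the one for Isg15 also names Gm9706, so neither is described.

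The 48 arrays held total RNA of skin, and 47 of them fell into 13 groups by treatment, route and week of the title. At week 5 these were il15rb (n = 3), PBS ip (n = 4) and sham (n = 4). At week 6 they were jak3i (n = 5), PBS pump (n = 3), jak12i (n = 5) and PBS gavage (n = 5), and at week 13 il15rb, PBS ip, jak3i, PBS pump, jak12i and PBS gavage with 3 arrays each. All groups shared the strain and the tissue. From what is known of the study, il15rb is an antibody that blocks the beta chain of the IL-15 receptor, jak3i is tofacitinib and jak12i is ruxolitinib, which are both inhibitors of Janus kinases (JAK), and each was set against the phosphate-buffered saline (PBS) of its own route. Ages, doses and grafts are not given in the sources used here. One further week 5 array, whose title names PBS ip and whose treatment label names IL15, was placed in no group.

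In this pathway interferon alpha or beta binds a receptor whose tails carry the kinases Jak1 and Tyk2. These phosphorylate the signal transducers that join with Irf9 into a complex known as ISGF3, which binds the interferon-stimulated response element (ISRE) in front of antiviral genes. The proteins made then degrade or trap viral RNA, sense more of it, or adjust the response through ubiquitin-like tags. In alopecia areata skin these genes are known to be active beside the genes induced by interferon gamma, whose receptor uses Jak1 and Jak2. The IL-15 receptor signals through Jak1 and Jak3.

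The promoters are shown because the ISRE is the sequence through which these genes are addressed as a group. RefSeq promoter windows of 300 bases (GRCm38.p6, 250 before to 50 after the start of the transcript) were matched for 25 of the 34 members, Isg15 and Ifi44 included. The ISRE core was searched as GAAANNGAAA and, for the other strand, TTTCNNTTTC, with overlapping matches allowed, which occurred in Bst2, Oas1a and Isg15. It was present in 11 of the 25 members and in 3.99% of 27025 genes with a window. The gamma-activated site, searched as TTCNNNGAA, was present in 5 of the 25 members and in 9.55% of all genes. Of the 18 ISRE matches 15 began before the transcript start, and their first bases lay between -156 and 32, counting the first transcribed base as 0. The sequences below run in the direction of transcription with ISRE matches in capitals. Ifit1, Ifit3 and Ddx60 each hold 2 matches, Oas3 holds 1, and Oasl2, whose signal differed most from PBS of any member, has none in this window.
Ifit1 (chr19:34640639-34640938, plus strand): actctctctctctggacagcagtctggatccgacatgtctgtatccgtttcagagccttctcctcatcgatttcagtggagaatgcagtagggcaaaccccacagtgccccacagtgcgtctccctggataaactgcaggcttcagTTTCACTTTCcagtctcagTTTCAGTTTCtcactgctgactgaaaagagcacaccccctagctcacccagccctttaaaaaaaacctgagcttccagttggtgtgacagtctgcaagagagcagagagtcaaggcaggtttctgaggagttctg
Ifit3 (chr19:34583279-34583578, plus strand): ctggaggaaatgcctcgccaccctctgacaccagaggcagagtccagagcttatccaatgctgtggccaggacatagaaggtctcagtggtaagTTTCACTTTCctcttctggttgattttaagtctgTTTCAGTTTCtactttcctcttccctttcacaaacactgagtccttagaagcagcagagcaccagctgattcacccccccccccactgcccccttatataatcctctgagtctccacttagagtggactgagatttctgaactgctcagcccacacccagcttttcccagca
Ddx60 (chr8:61927837-61928136, plus strand): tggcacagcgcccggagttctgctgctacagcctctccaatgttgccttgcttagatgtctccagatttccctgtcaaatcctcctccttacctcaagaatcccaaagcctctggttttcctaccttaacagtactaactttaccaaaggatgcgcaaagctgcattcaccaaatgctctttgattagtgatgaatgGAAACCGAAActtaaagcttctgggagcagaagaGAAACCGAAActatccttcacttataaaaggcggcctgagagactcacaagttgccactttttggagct
Oas3 (chr5:120777610-120777909, minus strand): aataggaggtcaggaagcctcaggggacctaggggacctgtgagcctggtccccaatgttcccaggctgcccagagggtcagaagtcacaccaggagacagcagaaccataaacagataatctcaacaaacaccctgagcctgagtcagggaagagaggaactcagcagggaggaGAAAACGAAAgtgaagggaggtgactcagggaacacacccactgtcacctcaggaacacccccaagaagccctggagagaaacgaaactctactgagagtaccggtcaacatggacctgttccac
Oasl2 (chr5:114896684-114896983, plus strand): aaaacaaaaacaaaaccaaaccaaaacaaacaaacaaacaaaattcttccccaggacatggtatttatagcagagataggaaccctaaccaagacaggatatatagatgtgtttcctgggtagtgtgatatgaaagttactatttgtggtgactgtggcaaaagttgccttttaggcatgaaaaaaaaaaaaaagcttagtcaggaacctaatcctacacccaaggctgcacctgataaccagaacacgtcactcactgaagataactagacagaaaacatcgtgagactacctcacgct
In Ifit1 the matches began at -104 and -85, in Ifit3 at -156 and -122, in Ddx60 at -53 and -19 and in Oas3 at -75. A match describes the letters only, and binding was not measured.

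Signals are log2 values on the array scale, differences between groups are log2 differences ± the standard error (SE), and group values are means ± SD. Every adjusted p is from limma fitted over all 13648 genes, with Benjamini-Hochberg adjustment within a comparison, and a gene was called at an adjusted p under 0.05. Keratinocyte markers averaged 12.92 to 13.52 in every array of the groups. The upper quartile of the arrays was 8.47 to 8.68 at week 5, 8.15 to 8.35 at week 6 and 8.68 to 8.78 at week 13, so levels were compared only within a week. The 3 to 5 arrays of a group limit the precision. The series calls them biological replicates, and in skin RNA fewer cells of a type and less RNA per cell cannot be told apart.

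Averaged over the 32 members, the signal was lower in treated skin than in PBS skin in every pairing. At week 5 the mean was 7.50 to 7.65 in il15rb skin, against 8.19 to 8.69 in PBS ip and 7.72 to 7.96 in sham skin. At week 6 it was 7.24 to 7.48 in jak3i skin, against 8.09 to 8.60 in PBS pump skin. In jak12i skin of the same week it was 7.47 to 7.97, against 7.76 to 8.72 in PBS gavage skin, the one of these pairs at weeks 5 and 6 that overlapped. At week 13 the jak3i arrays reached 7.64 to 8.02, against 9.41 to 10.06 in PBS pump skin. The jak12i arrays reached 8.13 to 8.82, against 9.29 to 10.09 in PBS gavage skin. The il15rb arrays reached 8.40 to 9.14, against 8.98 to 9.55 in PBS ip skin, and here the ranges overlapped.

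**Figure D1:**
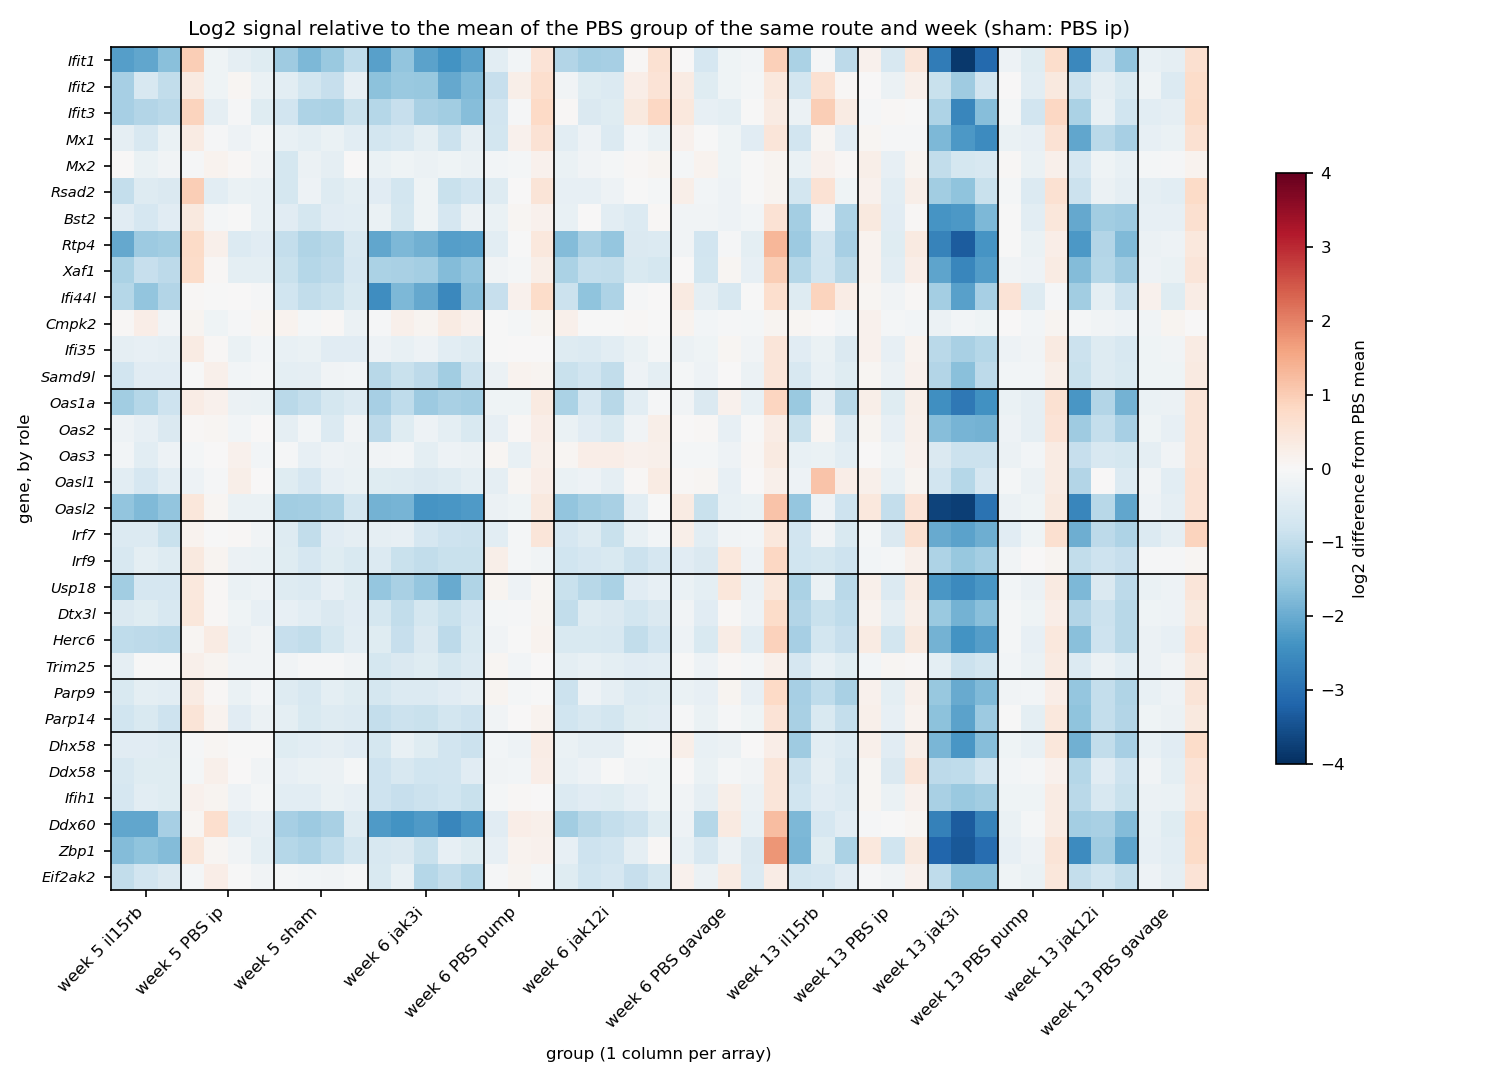
Each row is 1 of the 32 members and each column 1 of the 47 arrays, coloured by the log2 difference from the mean of the PBS group of the same route and week (sham against PBS ip), with black lines between groups and between roles. The deepest blue stands in week 13 jak3i, where the median member differed by -1.76, while the Cmpk2 row stays pale throughout.

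Under jak3i at week 13, 31 of the 32 members fell against PBS pump, where 6.32% of all tested genes were called lower, and the median member differed by -1.76, against 0.03 for all genes. The exception was Cmpk2 by its brighter probe set, whose other, dimmer probe set gave a value of -1.21 there. Under jak12i at week 13, 25 of 32 fell against PBS gavage (10.3% of all genes called lower), with a median of -1.09 against 0.02. Under il15rb at week 13, 17 of 32 fell against PBS ip (10.6% of all genes), with a median of -0.62 against 0.01. At week 6, 18 of 32 fell under jak3i (3.64% of all genes; median -0.76) and 12 of 32 under jak12i (8.1% of all genes; median -0.47). No member was called higher in any of these comparisons. Of the genes called at week 6, 11.1% were higher under jak3i and 15.5% under jak12i, and after quantile normalization 31.5% and 42.5%. The week 13 il15rb count was 5 without il15rb replicate 1, 11 without il15rb replicate 3, 7 without PBS ip replicate 1, 6 without PBS ip replicate 3 and 8 with the week 13 arrays alone. The week 6 jak12i count was 7 without PBS gavage replicate 3, 5 without PBS gavage replicate 5 and 6 without the 2 jak12i arrays rich in hair shaft keratins.

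At week 5 only Ddx60 was called lower under il15rb, where 0.0733% of all genes were. The median member differed by -0.62, and 25 of 32 were lower at an unadjusted p under 0.05, as were 2.81% of all genes. The il15rb and PBS ip arrays did not overlap for 29 members, all lower in il15rb skin, as for 4.3% of all genes. PBS ip against sham gave no called member in limma, beside 0.0293% of all genes in either direction. All 32 members were higher in PBS ip skin, with a median of 0.48, and 20 of them at an unadjusted p under 0.05 (2.6% of all genes). Il15rb against sham gave no called member either, beside 0.0293% of all genes, with a median of -0.16 and 1 member at an unadjusted p under 0.05 (5.84% of all genes on the lower side). These 3 comparisons share arrays. The count of 1 was 0 with the array of conflicting labels counted as PBS ip, 6 with it counted as il15rb and 11 when the spread was estimated from the week 5 arrays alone, and PBS ip against sham then gave 4 called members.

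Over the 6 comparisons of a treatment with its PBS, 10 members were called lower in 5: Xaf1, Usp18, Trim25, Rtp4, Parp14, Irf9, Ifih1, Eif2ak2, Dtx3l and Ddx60. Samd9l, Oas1a, Herc6 and Ddx58 were called in 4, and 7 members each in 3 and in 2. Rsad2, Oasl1 and Mx2 were called only under jak3i at week 13, and Cmpk2 in none of the 6. The share of all tested genes called lower in as many of the 6 was not counted. How unusual such recurrence is among all genes therefore cannot be told.

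**Figure D2:**
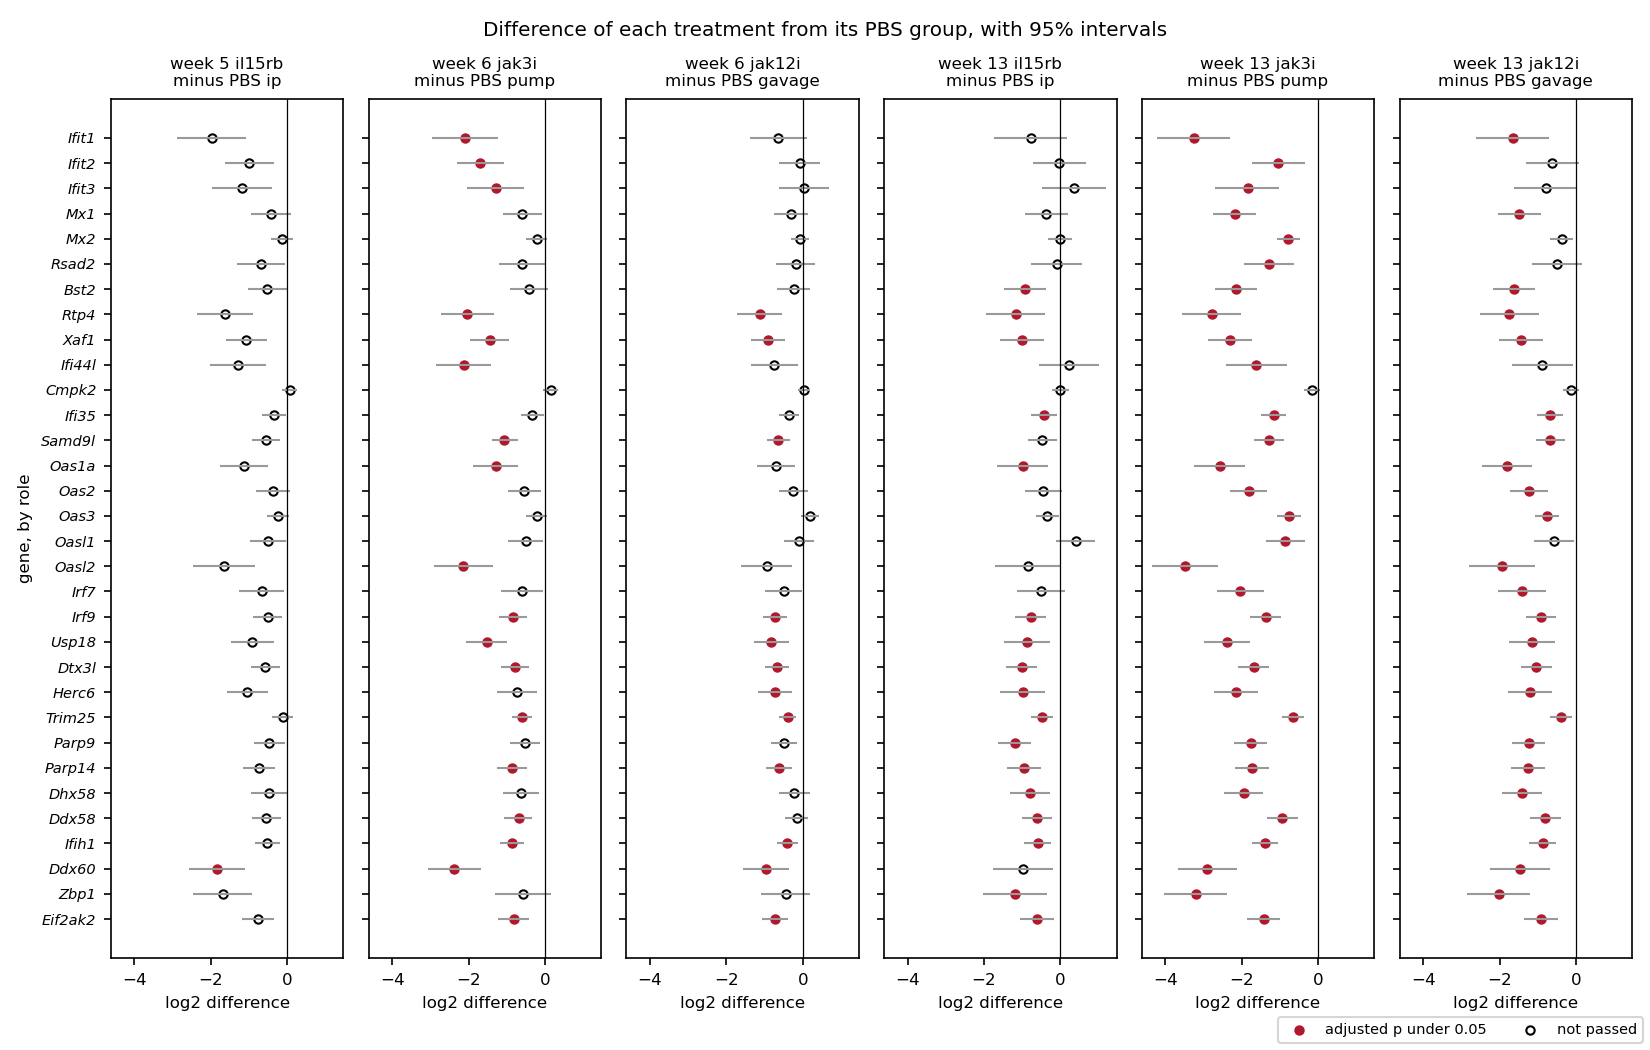
Points give the log2 difference of each member between a treatment and its PBS group, with 95% intervals as bars and filled points where the adjusted p was under 0.05. Of 32 points per panel, 1, 18, 12, 17, 31 and 25 are filled, all to the left of 0.

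Among the 13 effectors, the proteins that act on viral RNA, virus particles or infected cells, 12 fell under jak3i at week 13 and 7 under jak12i. At week 6, 7 fell under jak3i and 3 under jak12i, and 4 fell under il15rb at week 13. Ifit1 (probe set 1450783_at, chromosome 19) makes a protein that binds viral RNA with an incomplete cap. Its signals in week 13 jak3i skin were 7.54, 6.50 and 7.23, against 10.14, 9.86 and 11.06 in PBS pump skin. Every jak3i array lay more than 2 log2 units below every PBS pump array, and Ifit1 fell by 3.26 ± 0.47, or 9.59-fold (adjusted p = 4.34e-06). In jak12i skin Ifit1 read 7.49, 9.22 and 8.47, against 9.75, 9.70 and 10.71 in PBS gavage skin. The groups did not overlap, although jak12i replicate 2 came close to the lowest PBS array, and the difference was -1.66 ± 0.47 (3.16-fold lower, adjusted p = 0.0106). In il15rb skin it read 8.41, 9.63 and 8.63, against 9.84, 9.03 and 10.15 in PBS ip skin, and these overlapping groups differed by -0.78 ± 0.47 (adjusted p = 0.232).

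At week 6 the Ifit1 signal was 5.43, 6.02, 5.45, 5.21 and 5.47 in jak3i skin, against 7.18, 7.48 and 8.14 in PBS pump skin. All 5 jak3i arrays were below all PBS arrays and their mean lay near background, so that the difference of -2.09 ± 0.42 is a bound, at least 4.25-fold lower (adjusted p = 0.0022). In jak12i skin of week 6 the 5 arrays split into 6.02, 5.83 and 5.86 beside 7.23 and 7.80, against 7.19, 6.52, 6.9999, 7.06 and 8.14 in PBS gavage skin. The upper jak12i arrays lay within the PBS range, and the difference of -0.64 ± 0.37 did not pass (adjusted p = 0.276). At week 5 Ifit1 was 5.95, 6.10 and 6.50 in il15rb skin, against 9.14, 7.999, 7.81 and 7.69 in PBS ip and 6.73, 6.36, 6.66 and 7.13 in sham skin. The il15rb and PBS ip arrays were apart by over a unit, yet the difference of -1.98 ± 0.44 had an adjusted p of 0.0594. Ifit1 was 1.44 ± 0.41 higher in PBS ip than in sham skin (adjusted p = 0.458).

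The neighbours of Ifit1 on chromosome 19 did not show the same sizes. At week 13 under jak3i, Ifit2 fell by 1.04 ± 0.34 (adjusted p = 0.0314) and Ifit3 by 1.85 ± 0.41 (adjusted p = 0.00169), and at week 6 Ifit2 fell by 1.69 ± 0.30 (adjusted p = 0.000534). Under il15rb at week 13 their differences were -0.03 ± 0.34 and 0.35 ± 0.41. Differences between genes were not tested, and single probe sets of different genes need not respond alike.

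Rtp4, which makes a chaperone that also restricts flaviviruses, and Xaf1, a gene that favours cell death, were lower in each of the 6 comparisons and called in 5. Rtp4 in week 13 jak3i skin was 8.88, 8.23 and 9.21, against 11.54, 11.31 and 11.84 in PBS pump skin, and fell by 2.79 ± 0.38 or 6.92-fold (adjusted p = 1.48e-06). In week 6 jak12i skin Rtp4 was 7.85, 8.28, 8.03, 8.99 and 9.03, against 9.44, 8.79, 9.53, 9.20 and 10.90 in PBS gavage skin. These groups overlapped at PBS gavage replicate 2, and Rtp4 fell by 1.13 ± 0.30 (2.19-fold, adjusted p = 0.0114). Xaf1 fell by 2.32 ± 0.28 under jak3i at week 13, 4.99-fold (adjusted p = 2.19e-07), and by 1.01 ± 0.28 under il15rb (adjusted p = 0.00821).

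Mx1, a gene of the dynamin-like GTPases, was called lower only at week 13 and only under the JAK inhibitors. Its signals were 6.93, 6.42 and 6.20 in jak3i skin, against 8.45, 8.39 and 9.29 in PBS pump skin, and 6.40, 7.40 and 7.15 in jak12i skin, against 8.12, 8.21 and 9.07 in PBS gavage skin. Neither pair overlapped, and Mx1 fell by 2.19 ± 0.28 (4.58-fold, adjusted p = 3.91e-07) and by 1.48 ± 0.28 (2.80-fold, adjusted p = 0.000191). In il15rb skin Mx1 was 7.49, 8.36 and 7.82, against 8.35, 8.23 and 8.22 in PBS ip skin, with overlap. Bst2, which tethers budding virus to the cell and in mice also marks plasmacytoid dendritic cells, fell by 2.15 ± 0.27 under jak3i (adjusted p = 3.91e-07), by 1.63 ± 0.27 under jak12i (adjusted p = 4.75e-05) and by 0.93 ± 0.27 under il15rb (adjusted p = 0.0113), all at week 13. Ifi44l fell by 2.13 ± 0.35 under jak3i at week 6 (4.37-fold, adjusted p = 0.000239) and by 1.62 ± 0.39 at week 13 (adjusted p = 0.00372). Under il15rb at week 13 Ifi44l differed by 0.22 ± 0.39. A dimmer probe set of Ifi44l gave -0.21 under jak3i at week 6 and -0.10 at week 13.

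The effectors Rsad2, Cmpk2, Samd9l, Ifi35 and Mx2 were called in 4 or fewer of the 6 comparisons. Rsad2, or viperin, which makes a chain-terminating nucleotide, fell by 1.29 ± 0.33 under jak3i at week 13 (adjusted p = 0.00531). Its neighbour on chromosome 12, Cmpk2, a mitochondrial nucleotide kinase, differed there by -0.16 ± 0.10 (adjusted p = 0.297). That value is from the probe set of highest mean, and the other probe set of Cmpk2, which was not in the fit, gave -1.21 there, -0.26 under jak12i and 0.70 under il15rb at week 13, -0.70 under jak3i and -0.30 under jak12i at week 6, and -0.63 under il15rb at week 5. Samd9l, which restricts poxviruses, fell in both JAK inhibitor groups at both weeks, by 0.64 to 1.29. Ifi35 fell in the 3 treatments of week 13, by 0.44, 1.17 and 0.67 under il15rb, jak3i and jak12i. Mx2 fell by 0.78 ± 0.15 under jak3i at week 13 (adjusted p = 0.000353).

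**Figure D3:**
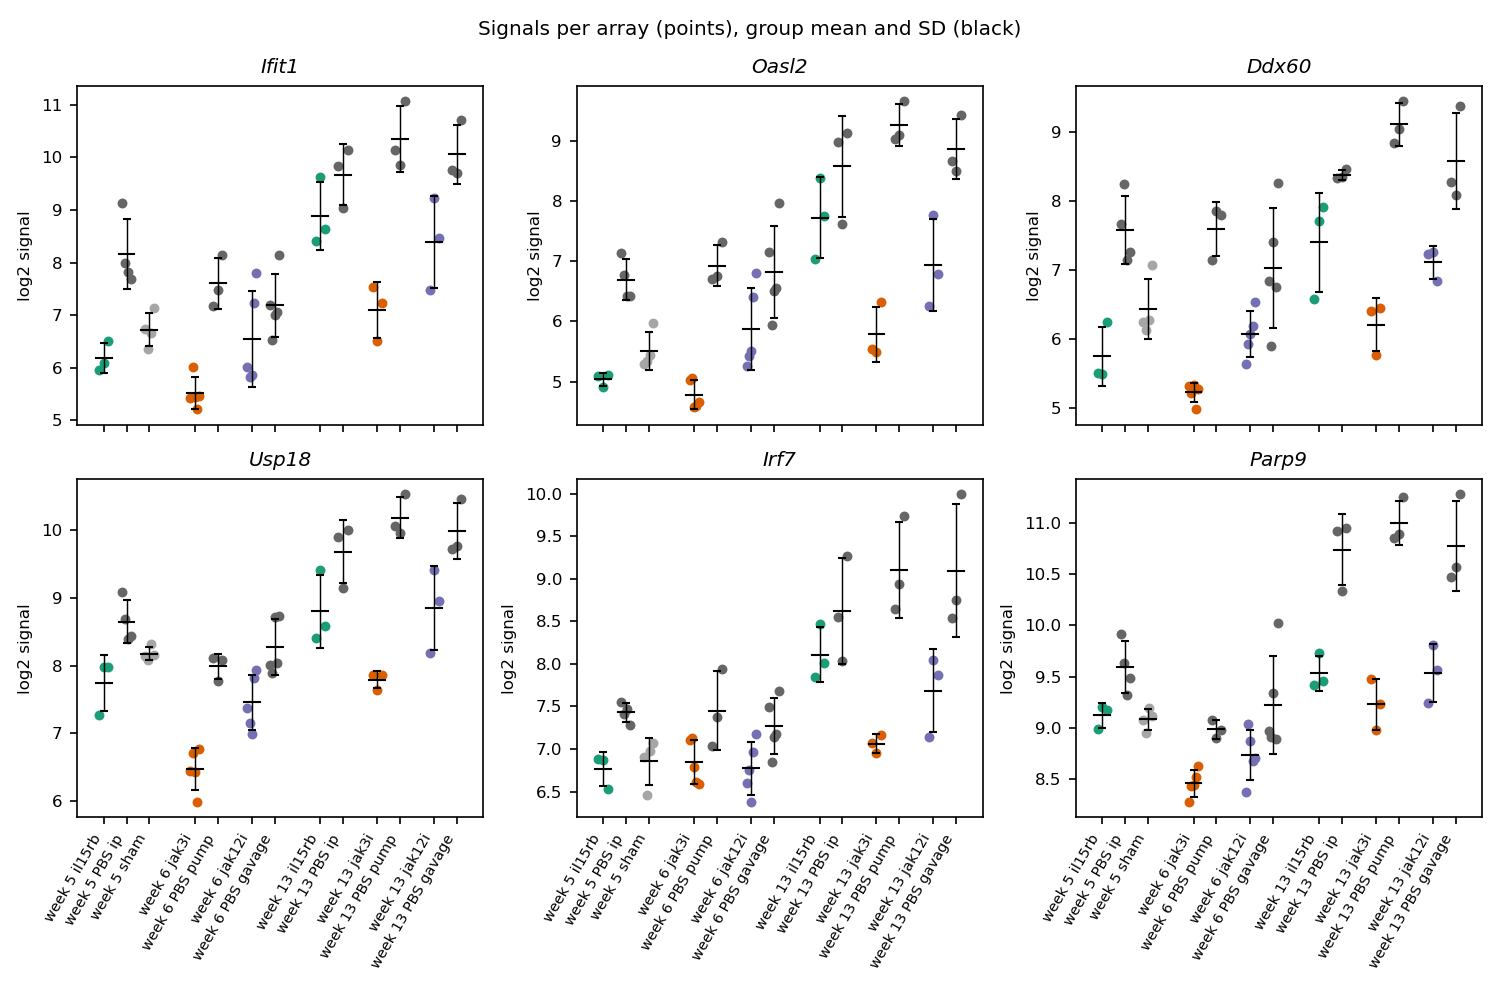
Log2 signals of 6 members per array (points) with group mean and SD (black) in the 13 groups. In week 13 the jak3i points of Ifit1, Oasl2, Ddx60, Usp18, Irf7 and Parp9 all lie below those of PBS pump, while il15rb points of Ifit1, Oasl2, Usp18 and Irf7 overlap with PBS ip.

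Oligoadenylate synthetases make a short-lived messenger that activates RNase L, which cuts viral RNA. The 5 genes of this family followed here lie on chromosome 5 and include synthetase-like genes, of which Oasl1 does not make the messenger. All 5 fell under jak3i at week 13 and 4 under jak12i, against 1 under il15rb. At week 6, 2 fell under jak3i and none under jak12i. Oasl2 (probe set 1453196_a_at) had signals of 5.54, 5.49 and 6.32 in week 13 jak3i skin, against 9.04, 9.09 and 9.65 in PBS pump skin. The groups were far apart, and the difference of -3.48 ± 0.43, or 11.1-fold, was the largest among the members in any comparison with PBS (adjusted p = 2.19e-07). In jak12i skin Oasl2 was 6.25, 7.76 and 6.79, against 8.66, 8.50 and 9.43 in PBS gavage skin, without overlap, and fell by 1.93 ± 0.43 (3.81-fold, adjusted p = 0.00118). In il15rb skin it was 7.04, 8.38 and 7.74, against 8.98, 7.61 and 9.13 in PBS ip skin. PBS ip replicate 2 lay below 2 of the il15rb arrays, and the difference of -0.86 ± 0.43 did not pass (adjusted p = 0.139).

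At week 6 Oasl2 was 5.03, 5.06, 4.57, 4.60 and 4.66 in jak3i skin, which is near background, against 6.70, 6.75 and 7.32 in PBS pump skin. All jak3i arrays were lower, and Oasl2 fell by 2.14 ± 0.38 or at least 4.41-fold (adjusted p = 0.000515). In jak12i skin it was 5.25, 5.42, 5.51, 6.40 and 6.80, against 7.15, 5.94, 6.51, 6.55 and 7.96 in PBS gavage skin, with overlap, and the difference was -0.94 ± 0.33 (adjusted p = 0.0616). At week 5 the il15rb arrays read 5.10, 4.91 and 5.10, against 7.14, 6.77, 6.42 and 6.43 in PBS ip and 5.29, 5.35, 5.44 and 5.97 in sham skin. All il15rb arrays were near background and below both other groups, and the difference from PBS ip was -1.65 ± 0.40 (adjusted p = 0.127).

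Of the other synthetases, Oas1a fell by 2.58 ± 0.33 under jak3i (5.98-fold, adjusted p = 3.91e-07), by 1.80 ± 0.33 under jak12i (3.48-fold, adjusted p = 0.000132) and by 0.99 ± 0.33 under il15rb (adjusted p = 0.0231) at week 13. Oas2 in week 13 jak3i skin was 7.48, 7.34 and 7.29, against 8.997, 8.82 and 9.75 in PBS pump skin, and fell by 1.82 ± 0.24 (adjusted p = 7.73e-07). Oas3 fell by 0.76 ± 0.15 under each JAK inhibitor at week 13. Oasl1, which in mice holds back translation of Irf7, fell by 0.86 ± 0.25 under jak3i (adjusted p = 0.0175) and differed by 0.40 ± 0.25 under il15rb (adjusted p = 0.253).

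The 2 transcription factors differed in when they were called. Irf9, the DNA-binding part of ISGF3, fell under both JAK inhibitors at week 6 and under all treatments at week 13. Its week 6 signals were 8.58, 8.73, 8.78, 8.53 and 8.72 in jak12i skin, against 8.93, 8.82, 9.80, 9.18 and 10.21 in PBS gavage skin. These did not overlap, one of 4 members for which this held in that comparison beside 6.35% of all genes, and Irf9 fell by 0.72 ± 0.15 (adjusted p = 0.00227). At week 13 Irf9 was 9.31, 9.40 and 9.30 in il15rb skin, against 10.001, 10.02 and 10.31 in PBS ip skin, and fell by 0.78 ± 0.20 (adjusted p = 0.00419). Under jak3i at week 13 Irf9 fell by 1.37 ± 0.20 and under jak12i by 0.91 ± 0.20.

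Irf7 (probe set 1417244_a_at, chromosome 7), which amplifies the response by switching on interferon genes, was called only under the JAK inhibitors at week 13. It was 7.08, 6.95 and 7.17 in jak3i skin, against 8.65, 8.93 and 9.73 in PBS pump skin, and fell by 2.04 ± 0.31, 4.11-fold (adjusted p = 7.87e-06). It was 7.14, 8.05 and 7.87 in jak12i skin, against 8.54, 8.75 and 9.99 in PBS gavage skin, and fell by 1.41 ± 0.31, 2.65-fold (adjusted p = 0.00109). Neither pair overlapped. In il15rb skin Irf7 was 7.85, 8.47 and 8.01, against 8.55, 8.03 and 9.27 in PBS ip skin, with overlap, and differed by -0.51 ± 0.31 (adjusted p = 0.23). Its week 6 signals were 7.10, 7.14, 6.79, 6.61 and 6.59 in jak3i skin, against 7.03, 7.38 and 7.94 in PBS pump skin. Those arrays overlapped, and the differences at week 6 were -0.61 ± 0.28 under jak3i (adjusted p = 0.256) and -0.50 ± 0.24 under jak12i (adjusted p = 0.184). At week 5 it differed by -0.67 ± 0.29 under il15rb (adjusted p = 1), although the il15rb arrays, 6.88, 6.87 and 6.53, were all below the PBS ip arrays, 7.56, 7.41, 7.47 and 7.28.

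The 4 members of the ISG15 and ubiquitin system and the 2 poly-ADP-ribose polymerases were called in most comparisons from week 6 on. All 4 of the first, Usp18, Dtx3l, Herc6 and Trim25, fell under jak12i at week 6 and under every treatment at week 13, and 3 of them under jak3i at week 6, Herc6 being the exception (-0.73 ± 0.26, adjusted p = 0.106). Usp18 (probe set 1418191_at, chromosome 6) removes the ISG15 tag and also shuts off the interferon receptor. It was 7.86, 7.65 and 7.87 in week 13 jak3i skin, against 10.06, 9.95 and 10.53 in PBS pump skin, and fell by 2.39 ± 0.30, 5.24-fold (adjusted p = 2.7e-07). It was 8.19, 9.41 and 8.95 in jak12i skin, against 9.72, 9.77 and 10.46 in PBS gavage skin, and fell by 1.14 ± 0.30, 2.20-fold (adjusted p = 0.00527). Both pairs were apart. In il15rb skin it was 8.40, 9.41 and 8.59, against 9.89, 9.14 and 9.998 in PBS ip skin, and fell by 0.88 ± 0.30 despite overlap (adjusted p = 0.0257).

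At week 6 Usp18 was 6.44, 6.71, 6.44, 5.99 and 6.77 in jak3i skin, against 8.12, 7.78 and 8.08 in PBS pump skin. Each jak3i array was more than a unit below, and Usp18 fell by 1.52 ± 0.27, 2.87-fold (adjusted p = 0.000445). In jak12i skin it was 7.38, 7.16, 6.99, 7.82 and 7.94, against 8.0025, 7.89, 8.72, 8.03 and 8.73 in PBS gavage skin, overlapping at one array of each, and fell by 0.82 ± 0.23 (adjusted p = 0.0187). At week 5 it was 7.27, 7.97 and 7.99 in il15rb skin, against 9.08, 8.69, 8.39 and 8.43 in PBS ip skin, and differed by -0.91 ± 0.28 without passing (adjusted p = 0.437).

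Parp9 and Parp14 lie on chromosome 16 with Dtx3l, the ubiquitin ligase that works as a pair with Parp9. Under il15rb at week 13 these were among the members of smallest adjusted p. Parp9 was 9.42, 9.73 and 9.45 in il15rb skin, against 10.92, 10.34 and 10.95 in PBS ip skin, and fell by 1.20 ± 0.22, 2.30-fold (adjusted p = 0.000112). Dtx3l was 9.06, 9.35 and 9.22, against 10.37, 9.87 and 10.46, and fell by 1.02 ± 0.20 (adjusted p = 0.000273). Neither gene's arrays overlapped. Parp14 fell by 0.95 ± 0.22 under il15rb (adjusted p = 0.00146). Under the JAK inhibitors at week 13 Parp9 fell by 1.77 ± 0.22 with jak3i and by 1.24 ± 0.22 with jak12i.

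The 6 sensors recognise viral nucleic acid inside the cell. All 6 fell under both JAK inhibitors at week 13, 5 of 6 under il15rb at week 13, 4 under jak3i and 3 under jak12i at week 6. Ddx60 (probe set 1451777_at, chromosome 8), a helicase that assists RIG-I, was the member called at week 5. Its signals there were 5.51, 5.50 and 6.25 in il15rb skin, against 7.67, 8.24, 7.15 and 7.26 in PBS ip and 6.26, 6.14, 6.28 and 7.08 in sham skin. No il15rb array reached the PBS ip range, and it fell by 1.83 ± 0.36, 3.55-fold (adjusted p = 0.0217). Leaving out either il15rb replicate 1 or 2, or PBS ip replicate 2, 3 or 5, ended this call, and 2 members were called without PBS ip replicate 4.

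At week 6 Ddx60 was 5.33, 5.22, 5.34, 4.99 and 5.28 in jak3i skin, near background, against 7.14, 7.85 and 7.80 in PBS pump skin. The narrow jak3i group lay far below, and Ddx60 fell by 2.37 ± 0.34 or at least 5.16-fold (adjusted p = 9.75e-05), the lowest adjusted p among the members in that comparison. In jak12i skin it was 5.64, 5.94, 6.07, 6.19 and 6.54, against 6.84, 5.91, 7.41, 6.75 and 8.27 in PBS gavage skin, where replicate 2 lay among the jak12i arrays, and it fell by 0.96 ± 0.30 (adjusted p = 0.0342). At week 13 it was 6.41, 5.77 and 6.45 in jak3i skin, against 8.84, 9.05 and 9.44 in PBS pump skin, and fell by 2.90 ± 0.38, 7.47-fold (adjusted p = 8.69e-07). It was 7.23, 7.27 and 6.84 in jak12i skin, against 8.28, 8.08 and 9.38 in PBS gavage skin, and fell by 1.47 ± 0.38 (adjusted p = 0.00557). Both pairs were apart. In il15rb skin it was 6.58, 7.71 and 7.91, against 8.33, 8.35 and 8.46 in PBS ip skin, all lower yet not called (-0.98 ± 0.38, adjusted p = 0.057).

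Zbp1, which senses Z-form nucleic acid and can start cell death, was 6.95, 6.75 and 7.08 in week 13 jak3i skin, against 9.80, 9.94 and 10.66 in PBS pump skin. It fell there by 3.21 ± 0.41, 9.23-fold (adjusted p = 4.41e-07), and by 2.01 ± 0.41, 4.04-fold, in jak12i skin (adjusted p = 0.000498). At week 6 Zbp1 was 7.05, 7.12, 6.80, 7.37 and 7.21 in jak3i skin, against 7.38, 7.84 and 7.86 in PBS pump skin, barely apart, and differed by -0.58 ± 0.37 (adjusted p = 0.47). The RNA helicases Ifih1 (MDA5), Ddx58 (RIG-I) and Dhx58 (LGP2) fell under jak3i at week 13 by 1.39 ± 0.17, 0.95 ± 0.20 and 1.95 ± 0.25. The 2 other, dimmer probe sets of Dhx58 gave -0.22 and -0.03 there. The kinase Eif2ak2 (PKR), which stops translation, fell in 5 of the 6 comparisons, by 0.62 to 1.43.

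The treatments were also compared directly at week 13. As each agent was taken to have its own route, agent and route cannot be told apart in these direct differences. The member mean of the PBS groups was 9.68 for pump, 9.57 for gavage and 9.33 for ip. Jak3i against il15rb gave 5 called members, all lower in jak3i skin (0.249% of all genes called lower), with a median of -0.73. They were Ifi44l (-1.97 ± 0.39, adjusted p = 0.00906), Oasl2 (-1.94 ± 0.43, adjusted p = 0.021), Mx1 (-1.38 ± 0.28, adjusted p = 0.0106), Oasl1 (-1.18 ± 0.25, adjusted p = 0.0156) and Oas2 (-1.17 ± 0.24, adjusted p = 0.0106). For Oas2 the jak3i arrays, 7.48, 7.34 and 7.29, were all below the il15rb arrays, 8.10, 9.07 and 8.44. For Ifi44l they were 6.61, 5.80 and 6.65, against 7.58, 8.99 and 8.41, also apart. The count was 0 without il15rb replicate 2 or jak3i replicate 2, 2 without il15rb replicate 3, 3 without jak3i replicate 3, and 0 with quantile normalization or with the week 13 arrays alone.

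Jak12i against il15rb gave no called member in limma (0.11% of all genes in either direction), 4 lower at an unadjusted p under 0.05 (6.59% of all genes), and a median of -0.23. Oasl2 differed by -0.79 ± 0.43 (95% interval -1.65 to 0.07) and Usp18 by 0.05 ± 0.30. The mean of both JAK inhibitors against il15rb gave 1, Mx1, lower by 1.14 ± 0.24 (adjusted p = 0.0273; 0.154% of all genes called lower). The count was 0 without il15rb replicate 2 or 3 or jak3i replicate 2 or 3, and 3 without il15rb replicate 1 or jak12i replicate 2. When each treatment was first set against its own PBS, no member differed between the mean JAK inhibitor effect and the il15rb effect (0.00733% of all genes in either direction), although 23 were more negative at an unadjusted p under 0.05, as were 3.02% of all genes. The median of these differences was -0.83, and for Oasl2 the value was -1.85 ± 0.52 (adjusted p = 0.375). The count was 1 without PBS ip replicate 2.

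Jak3i against jak12i gave no called member in limma (1.31% of all genes in either direction), 18 at an unadjusted p under 0.05, as were 6.51% of all genes on the lower side, and a median of -0.53. The smallest adjusted p was that of Usp18, -1.06 ± 0.30 (95% interval -1.66 to -0.46, adjusted p = 0.0595). For Ifit1 the interval of the difference was -2.26 to -0.34, for Oasl2 -2.01 to -0.29, and for Irf7 -1.25 to 0.00. Arrays of jak3i and jak12i did not overlap for 14 members, all lower in jak3i skin, as for 9.07% of all genes. Without jak12i replicate 1 the count of called members was 1. For this pair the effects relative to each PBS were not compared.

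**Figure D4:**
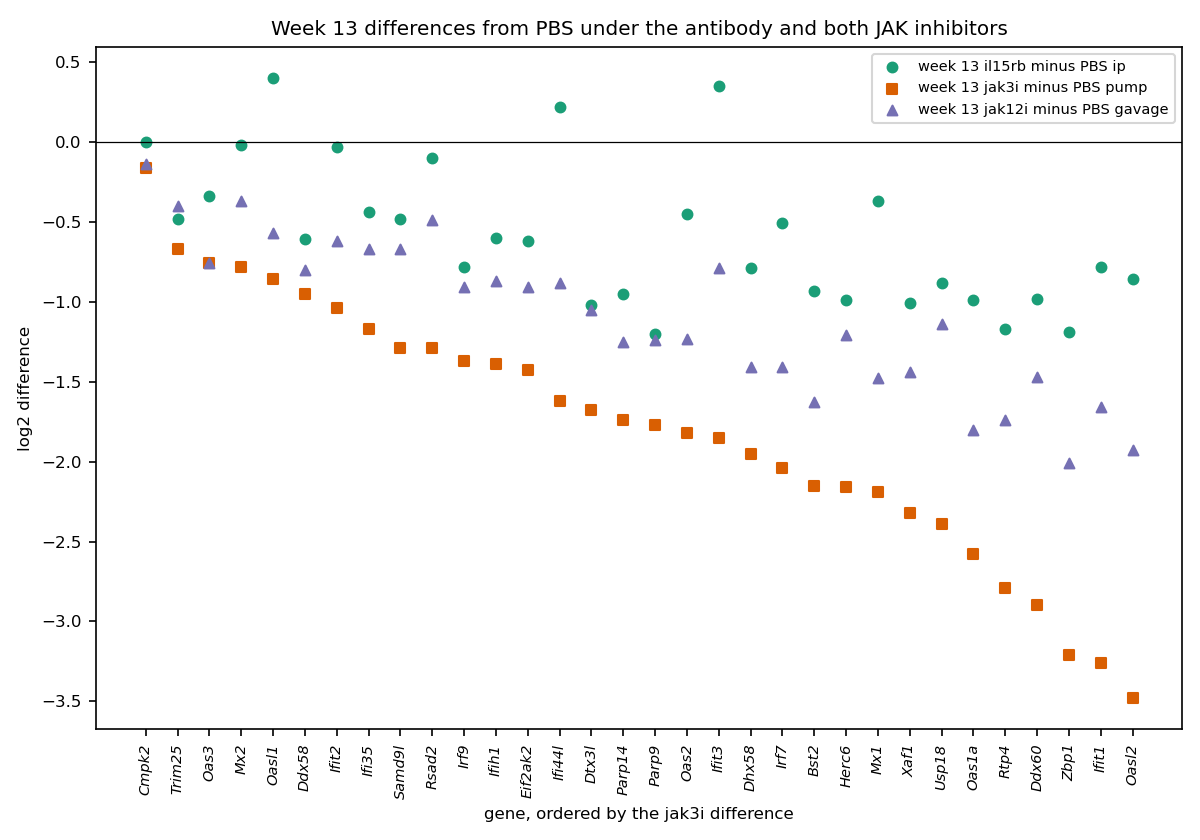
Log2 differences from PBS at week 13 for the 32 members, ordered by the jak3i difference, under il15rb (circles), jak3i (squares) and jak12i (triangles). Jak3i values run from -0.16 for Cmpk2 to -3.48 for Oasl2, and il15rb values from -1.20 to 0.40.

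The size of an effect could be set against that of the earlier week. A difference between weeks can lie in PBS skin or in treated skin, and these were not told apart. For jak3i, 11 members had a more negative effect at week 13 than at week 6 (3.02% of all genes), and the median difference was -0.80. Zbp1 had the largest, -2.62 (adjusted p = 0.00204), with effects of -3.21 at week 13 and -0.58 at week 6. Its group means were 6.93 in jak3i and 10.13 in PBS pump skin at week 13, and 7.11 and 7.69 at week 6. Bst2 (-1.74, adjusted p = 0.00213), Mx1 (-1.60, adjusted p = 0.00547), Irf7 (-1.44, adjusted p = 0.0223) and Herc6 (-1.43, adjusted p = 0.015) followed. Ifit2 and Ifi44l had values on the other side, 0.65 and 0.51, neither called. For jak12i, 6 members had a more negative effect at week 13 than at week 6 (5.56% of all genes), Zbp1, Bst2, Dhx58, Mx1, Oas2 and Oas3, by 0.95 to 1.57. For il15rb, no member was called between week 13 and week 5 (10.6% of all genes in either direction), 5 at an unadjusted p under 0.05 (27.3% of all genes), and the median was 0.06. That count was 3 without week 13 il15rb replicate 1 and 1 without week 13 PBS ip replicate 2. Without week 13 PBS pump replicate 3 the jak3i count was 4, and the jak12i count was 2 without week 13 jak12i replicate 1 or PBS gavage replicate 3 and 11 without week 6 PBS gavage replicate 5. Week 6 and week 13 arrays also differ in overall spread. Over the settings that left out no single array, quantile normalization among them, the count was 10 to 13 for jak3i and 5 to 9 for jak12i. The part of the spread was not tested beyond these alternatives.

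Genes induced by interferon gamma are set beside the antiviral genes, since both answer to JAK kinases. Their list also holds Ifng, the gene of interferon gamma itself. Of the 16 genes of this list that were tested, 0 were called under jak3i at week 6 in limma, with a median of -0.21. In that comparison 18 of 32 antiviral members fell and the antiviral median was -0.76. The GTPase genes Iigp1, Igtp and Irgm2 differed there by 0.02, 0.22 and 0.25, and Gbp7 by -0.20. These genes, named outside the rule for called genes, do not stand for the list, of which others lay lower, as its median shows. Under jak12i at week 6, 2 of the 16 fell, Iigp1 (-1.94, adjusted p = 0.0241) and Gbp2 (-1.07, adjusted p = 0.0351), and the median was -0.76, against -0.47 for the antiviral members. At week 13, 15, 15 and 16 of the 16 listed genes fell under il15rb, jak3i and jak12i, with medians of -1.92, -3.08 and -2.27. The median of the antiviral members was nearer to 0 in each, at -0.62, -1.76 and -1.09. At week 5 none of the 16 was called under il15rb, with a median of -1.30. The difference between both lists was not tested.

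**Figure D5:**
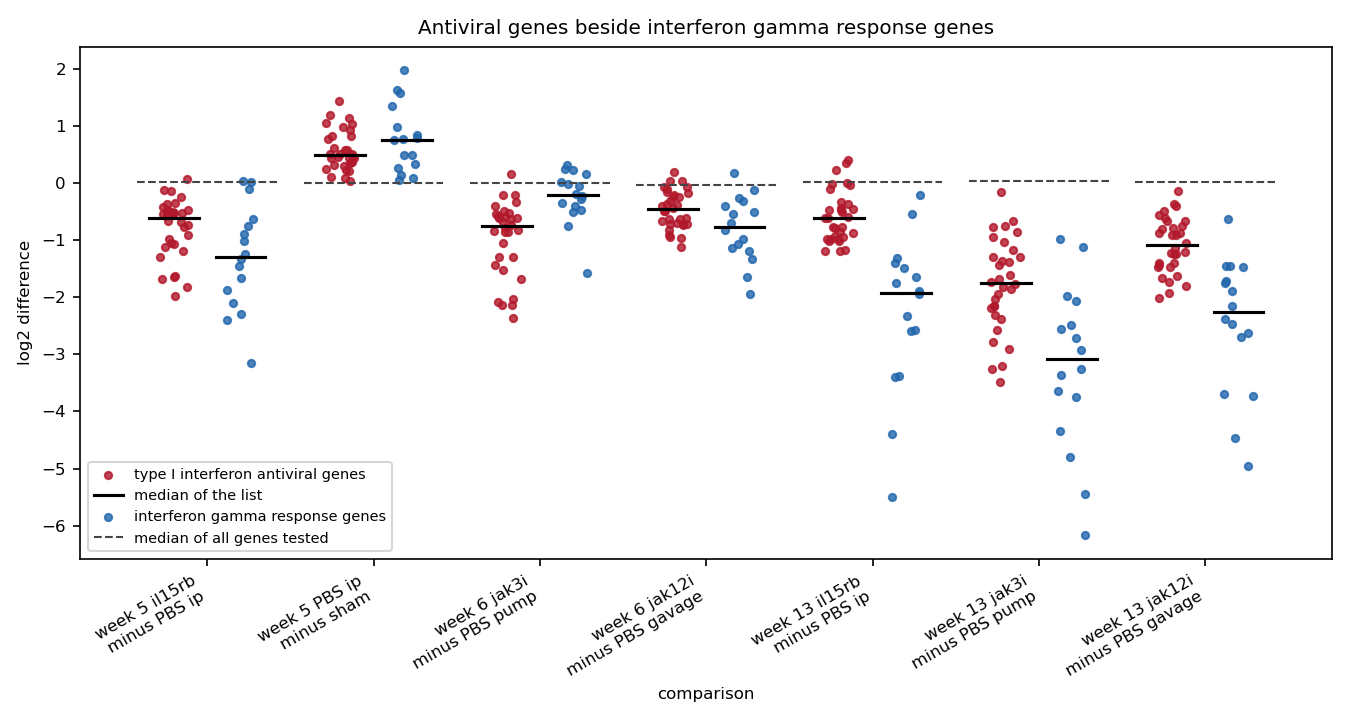
Log2 differences of the 32 antiviral members (red) and of 16 genes of the interferon gamma response list, Ifng included (blue), in 7 comparisons, with the median of each list as a black line and the median of all tested genes dashed. In week 6 jak3i the antiviral median is -0.76 and the gamma median -0.21, and in week 13 il15rb they are -0.62 and -1.92.

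Further upstream, of 13 signal transducers tested, 8 fell under jak3i at week 13, 5 under jak12i and 5 under il15rb. Stat2, the partner of Irf9 in ISGF3, fell by 2.21 ± 0.23 under jak3i (adjusted p = 1.31e-08), by 1.91 ± 0.23 under jak12i (adjusted p = 5.2e-07) and by 1.13 ± 0.23 under il15rb (adjusted p = 0.000551). Under jak12i at week 6, 7 transducers fell, by 0.23 to 0.85, among them Jak1 (-0.34), Jak2 (-0.36) and Tyk2 (-0.33), and 2 of 6 receptor genes, Ifnar1 (-0.24) and Ifngr2 (-0.42). Under jak3i at week 6, 2 transducers fell, Irf8 (-0.86) and Ptpn6 (-0.36), and so did 2 of 6 receptor genes, Ifnar2 by 0.88 ± 0.14 (adjusted p = 0.000145) and Il10rb by 0.72 ± 0.12 (adjusted p = 0.000187). Of 36 other interferon-stimulated genes tested, 25 fell under jak3i at week 13, 16 under jak12i and 7 under il15rb. At week 6, 15 and 14 fell under jak3i and jak12i. In that list 2 genes were called higher under il15rb at week 13 and 1 under jak12i at week 6. Of the 6 receptor genes, 1 rose under il15rb and 1 under jak12i at week 13, and 0 fell. Of all 13648 genes, 2059 were called higher under il15rb and 1580 under jak12i at week 13, and 203 under jak12i at week 6. These few rises therefore do not set the lists apart from all genes. At week 13, 6.32%, 10.3% and 10.6% of all genes were called lower under jak3i, jak12i and il15rb. At week 6 these shares were 3.64% under jak3i and 8.1% under jak12i. Of 18 listed interferon genes only 9 had a probe set naming that gene alone, and those without one, Ifnk and Ifne among them, were not measured. Of the 9, only Ifna1 and Ifnz passed the filter, and Ifnz fell by 0.86 under jak12i at week 6 (adjusted p = 3.84e-05).

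Markers of immune cells moved with the antiviral genes in some comparisons. The mean of 11 cytotoxic lymphocyte markers at week 13 was 5.97 to 6.07 in jak3i, 6.23 to 6.65 in jak12i and 5.96 to 6.24 in il15rb skin, against 8.15 to 8.81 in PBS pump, 7.97 to 8.41 in PBS gavage and 7.54 to 8.79 in PBS ip skin. All 8 tested markers of that list fell in each of the 3 comparisons, and of 8 T cell markers 7, 5 and 8 fell under jak3i, jak12i and il15rb. Macrophage markers did not follow at week 13, where 1, 1 and 2 of 12 fell under jak3i, il15rb and jak12i. Their medians there were -0.04, 0.27 and -0.46, and the list means overlapped with PBS in each, as with 9.24 to 10.31 in jak3i and 9.38 to 10.43 in PBS pump skin. At week 5, 2 of 8 T cell markers, Cd247 and Cd3g, and 3 of 8 cytotoxic markers, Ctsw, Klrd1 and Nkg7, fell under il15rb, where 10 genes in all were called lower. The cytotoxic mean was 5.87 to 6.04 in il15rb skin, against 6.33 to 6.79 in PBS ip skin, and the macrophage mean 8.91 to 9.02 against 9.23 to 9.86, so neither overlapped. At week 6 under jak3i, 1 T cell and 1 cytotoxic marker fell, with list means of 6.60 to 6.71 for T cells in jak3i skin, against 7.01 to 7.06 in PBS pump skin, and of 5.94 to 6.03 for cytotoxic cells, against 6.44 to 6.50. There 8 of 12 macrophage markers fell, with a mean of 8.65 to 9.52 in jak3i skin, against 9.88 to 10.65 in PBS pump skin. Under jak12i at week 6, 3 of 8 cytotoxic markers, 1 of 8 T cell and 1 of 12 macrophage markers fell, and the cytotoxic mean was 6.05 to 6.22 in jak12i skin, against 6.11 to 7.03 in PBS gavage skin, with overlap.

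The 9 plasmacytoid dendritic cell markers went in both directions under jak3i at week 13. Siglech, a defining marker, had group means of 6.57 in jak3i and 6.42 in PBS pump skin, and Tcf4 rose by 0.43 while Ly6d fell by 0.44. Ly6d averaged 12.83 in jak3i and 13.27 in PBS pump skin, a level like that of the keratinocyte marker Krt14 (13.25 and 13.57). Tcf4 averaged 10.88 and 10.45, also far above Siglech. Which cells gave the Ly6d and Tcf4 signals was not tested. Spib averaged 5.57 in jak3i and 6.02 in PBS pump skin, Lag3 5.35 and 5.79, and Pacsin1 5.45 and 5.83, and these 3 were under the filter. Cox6a2, also a muscle gene, averaged 11.07 in jak3i and 9.15 in PBS pump skin, so that it raised the list mean, which was 7.97 to 8.10 in jak3i skin, against 7.68 to 8.08 in PBS pump skin.

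Tissue markers moved as well. At week 13, 2059, 1320 and 1580 of all 13648 genes were called higher under il15rb, jak3i and jak12i. Of 5 adipocyte markers 5, 3 and 5 rose at week 13 under il15rb, jak3i and jak12i, and their mean was 11.11 to 11.54 in il15rb skin, against 8.93 to 10.14 in PBS ip skin. It was 10.61 to 11.61 in jak3i skin, against a group mean of 9.99 in PBS pump skin, and 11.31 to 11.85 in jak12i skin, against 9.66 to 10.46 in PBS gavage skin. None overlapped. Of 9 muscle markers 8 rose under il15rb at week 13, with a median of 3.34, 1 under jak3i, about the share of all genes, and none under jak12i. Their mean was 13.54, 13.20 and 13.60 in il15rb skin, against 10.35, 12.85 and 7.45 in PBS ip skin, so that PBS ip replicates 1 and 3, without which the antiviral count was 7 and 6 and the median -0.61 and -0.52, were the lowest in muscle signal. It was 13.22, 13.10 and 13.21 in jak3i skin, against 11.81, 7.70 and 12.68 in PBS pump skin, and without PBS pump replicate 2 the antiviral count stayed at 31. The mean was 7.82 in week 6 PBS gavage replicate 5 and 12.60 to 13.58 in the other 4 of its group. Hair shaft keratins were lower in week 13 jak12i skin, at 5.82 to 6.74 against 9.07 to 11.33 in PBS gavage skin. The part of these cells and tissues in the antiviral differences was not tested.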

How the data were processed

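The authors deposited log2 values for 45101 probe sets of an Affymetrix mouse array, measured in 48 skin samples and used here unchanged. Per the submitters' processing notes they come from RMA, whose version is not given in the sources used here. RMA corrects background, normalizes and summarizes probes, which compresses differences of dim genes, and whether all arrays were normalized together is not given in the sources used here. RNA was extracted with a miRNeasy kit and labelled with biotin by in vitro transcription, per the labels' protocols.

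Groups came from the titles and treatment labels. The labels do not tie agents to routes, so PBS of other routes was an alternative. Probe sets naming 1 gene numbered 34958, several 932 and none 9211, by the platform annotation, with 34754 symbols updated through Entrez identifiers. Each gene took its probe set of highest mean. For 15 members with several, 6 of 86 pairs of another probe set and a comparison in which the member was called had the opposite sign, none 0.5 or more from 0. The filter asked for a log2 value over 6.70, the median of the whole table, in 3 arrays or more. Group means were fitted to all 47 arrays together in limma (version 3.58.1, R 4.3.3) with moderated variances. In simulated data with independent normal noise, 62% to 80% of 1.5-fold changes were found, and 2.73% to 8.78% of calls were false. The changed genes were drawn at random from all genes tested, the same number in each comparison, so these shares are not those of the members. The simulated noise had the fitted spread and no effect of array, tissue or week, so it does not show how the procedure fares with those. A group counted as near background, and its fold as a lower bound, when its mean was under 5.43, 5.61 or 5.38 at weeks 5, 6 and 13, the highest lower quartile of any array of that week. Replicate arrays correlated at 0.973 to 0.996.

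Equal replicate numbers were not taken as pairs. For jak3i and jak12i at week 13 the correlations of deviations between arrays of equal number were 0.225, 0.257 and 0.12. Elsewhere they ran between -0.492 and 0.312, so these values do not single out that pair. With the replicate block the count of called members for jak3i against jak12i stayed at 0.

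The named genes are the panel Ifit1, Irf7, Oasl2, Ddx60 and Usp18, up to 10 called members of largest change in each comparison, and others to account for the list. Other members named for their place, overlap or lack of change were chosen after their values were seen. Members and lists were chosen with earlier results of these data known. Some genes of those lists were not analysed here. Alternatives covered normalization, centring, the filter, the probe set, the arrays in the fit, the replicate block, PBS of other routes, the array with conflicting labels, and each array left out. Motifs were searched in RefSeq promoter windows of GRCm38.p6. No gene or marker list was tested as a set.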

Additional observations from a re-analysis of the deposited data

Results flagged for a closer look

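In 160 pairs of a member and a group of 4 or 5 arrays, 7 had 1 array far from the others, where chance gives about 1 in 20. Irf9 was 8.48 in week 6 jak3i replicate 1, with the other 4 arrays at 8.05 to 8.14. Cmpk2 was 6.97 in week 6 jak12i replicate 1, with the others at 6.74 to 6.80. In week 6 PBS gavage replicate 5, Zbp1 was 9.23, beside 6.81 to 7.23 in the others, and Bst2 was 9.03, beside 8.25 to 8.34. Rsad2 was 8.99 in week 5 PBS ip replicate 2, beside 7.56 to 7.71. In week 5 sham skin Ddx60 was 7.08 in replicate 4, beside 6.14 to 6.28, and Bst2 was 8.13 in replicate 2, beside 8.36 to 8.41.

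The effect of jak3i against PBS pump differed between week 13 and week 6 for 11 members. The difference was -2.62 for Zbp1, -1.74 for Bst2, -1.60 for Mx1, -1.44 for Irf7, -1.43 for Herc6, -1.32 for Dhx58, -1.28 for Oas2, -1.24 for Parp9, -0.90 for Dtx3l, -0.89 for Parp14 and -0.85 for Ifi35. The effect of jak12i against PBS gavage differed between the same weeks for 6 members, by -1.57 for Zbp1, -1.39 for Bst2, -1.19 for Dhx58, -1.17 for Mx1, -0.98 for Oas2 and -0.95 for Oas3. All had an adjusted p under 0.05 in limma, and a negative value means a lower signal relative to PBS at week 13. It does not tell whether PBS skin or treated skin differed between the weeks. Week 6 PBS gavage replicate 5 enters the jak12i values, and week 6 and week 13 arrays differ in their spread. The part of that spread was not tested beyond the alternative normalizations.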

How the results depend on the processing

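No median change of the members altered its direction in a comparison of a treatment with its PBS. Leaving out each array in turn, the called members numbered 0 to 2 for il15rb at week 5, 13 to 19 for jak3i and 5 to 16 for jak12i at week 6, and 5 to 19 for il15rb, 28 to 31 for jak3i and 17 to 27 for jak12i at week 13. They numbered 0 to 3 for the mean JAK inhibitor against il15rb, 0 to 7 for jak3i against il15rb, 0 to 1 for jak3i against jak12i and for the JAK inhibitor effect against the il15rb effect, and 0 for jak12i against il15rb, PBS ip against sham and il15rb against sham. For the effect of week 13 against the earlier week they numbered 0 to 3 for il15rb, 4 to 13 for jak3i and 2 to 11 for jak12i.

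With only the arrays of the weeks compared, the counts were 11 for il15rb against PBS ip, 4 for PBS ip against sham and 1 for il15rb against sham at week 5, 8 for il15rb at week 13, 1 for il15rb between weeks, and 0 for jak3i or the mean JAK inhibitor against il15rb. Quantile normalization gave 0 for those last 2 and 1 for il15rb between weeks, as did the mean of all probe sets. The array with conflicting labels gave 0 at week 5 as PBS ip and 6 as il15rb, and as il15rb 1 for il15rb between weeks. Without the 2 hair-rich jak12i arrays of week 6 the count was 6. With the replicate block the counts were 0 for il15rb at week 5 and for the mean JAK inhibitor against il15rb, and the block moved no other count by over 1.5 times. Against PBS of all routes the counts were 22 and 14 for jak3i and jak12i at week 6, and 25, 31 and 26 for il15rb, jak3i and jak12i at week 13.

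Called single members kept their call in 838 of 998 values with an array left out and in 844 of 909 under other settings, and none changed sign. Uncalled values near 0 did: Usp18 between weeks under il15rb was -0.19 with quantile normalization, -0.15 with the conflicting array as PBS ip and -0.28 to 0.22 with arrays left out. With arrays left out, Usp18 ran from -0.23 to 0.38 for jak12i against il15rb and from -0.60 to 0.01 for jak12i between weeks, and Irf7 from -0.22 to 0.02 for il15rb against sham and from -0.13 to 0.49 for il15rb between weeks. The share of called genes that were higher between weeks was 61.8%, 67.2% and 65.6% for il15rb, jak3i and jak12i, and 49.0%, 56.4% and 53.4% after quantile normalization. The causes were not tested. Dim signals limit Ifit1, Oasl2 and Ddx60 in the lowest groups.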

Other observations

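The week 5 array titled PBS ip and labelled IL15, which was placed in no group, had a mean over the 32 members of 7.59. The arrays of il15rb were at 7.50 to 7.65, those of PBS ip at 8.19 to 8.69 and those of sham at 7.72 to 7.96. Its Ifit1 signal was 6.10, beside 5.95 to 6.50 in il15rb, 7.69 to 9.14 in PBS ip and 6.36 to 7.13 in sham skin.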
